A study of Homo sapiens with 4 samples.

Results

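The cystatins are inhibitors of cysteine proteases, and 7 human cystatin genes were followed here in MDA-MB-231 cells: CST1, CST2, CST3, CST4, CST6, CSTA and CSTB. They were taken by gene symbol from a table of 20804 genes, and all 7 were found. MDA-MB-231 is an established human line of triple-negative breast cancer, a class of tumours without oestrogen receptor, progesterone receptor or HER2 amplification. The 4 RNA sequencing libraries were 2 with the genotype label miR-3662-KO (KO) and 2 of the parental genotype (WT). The labels name no other treatment, do not say whether the KO cells were 1 clone, and do not state whether libraries of a group came from separate cultures. The title of the series mentions CRISPR interference and activation and its design text mentions cells sorted by activity of the microRNA, so what the KO label stands for is uncertain.

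Cystatins act as pseudosubstrates: they wedge into the active site of papain-like proteases, chiefly the lysosomal cysteine cathepsins, and block it reversibly. The type 1 cystatins or stefins, encoded by CSTA and CSTB, lack a signal peptide and act mainly inside the cell. The type 2 cystatins, encoded by CST1 (cystatin SN), CST2 (cystatin SA), CST3 (cystatin C), CST4 (cystatin S) and CST6 (cystatin E/M), are secreted. CST1, CST2 and CST4 are best known from saliva and tears, CST3 is made by nearly all nucleated cells, CSTA belongs to stratified epithelia, and CST6 is often silenced by methylation in breast cancer. CST3 to CST2 lie side by side in a cluster on the short arm of chromosome 20.

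The members were chosen by symbol, on a proposal made with their FPKM values in the KO and WT libraries of this same table in view. Their differences between KO and WT are therefore given as a description, and no test of them is drawn on. Levels are FPKM values as deposited (fragments scaled to transcript length and to the mapped fragments of the library), and a difference is KO minus WT on the scale of log2(FPKM + 1), on which scarce genes appear to change less than they did. Read depth is unknown, so the counting error of a low value cannot be given. FPKM values summed to 528986 and 544650 in KO and to 504102 and 520527 in WT. The 5 mesenchymal markers summed to 2046 and 1930 FPKM in KO, against 1810 and 2011 FPKM in WT, and VIM, CD44 and AXL overlapped between the groups. CAV1 stood at 442.8 and 449.72 FPKM in KO, against 178.92 and 170.49 FPKM in WT, and LAMB3 at 126.99 and 122.47 FPKM in KO, against 188.21 and 225.78 FPKM in WT; their part in the results was not tested. The hormone receptor gene ESR1 stood at 0.01 or below and ERBB2 between 8.55 and 11.44 FPKM. The leukocyte markers PTPRC and CD3E were listed at 0 throughout. In the leukocyte, endothelial and fibroblast marker lists the summed levels were at most 1.54 FPKM in any library. The 5 luminal markers summed to 20.2 and 29.1 FPKM in KO, against 17.1 and 23.0 FPKM in WT. Most of that was KRT19, at 17.42 and 26.51 FPKM in KO, against 13.99 and 19.92 FPKM in WT. EPCAM was at 0.34 and 0.05 FPKM in KO, against 1.08 and 1.15 FPKM in WT. Levels are averages over a culture, so fewer expressing cells and less RNA per cell cannot be told apart.

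The mature microRNA is too short for these libraries and has no value here, so the KO label could not be checked. Its mature sequence is shown because the libraries are named for it, with the seed (bases 2 to 8) in capitals; it maps to chr6:134979355-134979378 on the minus strand (RefSeq, GRCh38.p14).
hsa-miR-3662: gAAAAUGAugaguagugacugaug
A full match to this seed in a transcript reads TCATTTT. It was absent from the annotated 3′ UTRs (GENCODE 29) of all 7 cystatin transcripts examined, which run from 105 nucleotides in CST6 to 2762 in the long transcript of CST3. For short 3′ UTRs that says little: of 1273 human 3′ UTRs within 20% of the length of that of CST1, 4.3% hold the match. For the long 3′ UTR of CST3 the share is 52.7% of 2327, and for that of CSTB, at 1691 nucleotides, 33.5% of 2544. The shorter match CATTTT, to bases 2 to 7, occurred once, in the long transcript of CST3, where 85.9% of 3′ UTRs of like length hold one. That stretch of 28 bases is at chr20:23626979-23627006 on the minus strand, with the match in capitals.
CST3 3′ UTR: tcccaaagctaCATTTTacctaaggcaa
The short transcript of CST3, with a 3′ UTR of 268 nucleotides, does not reach this position.

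The secretory cystatin genes CST1, CST4 and CST2 are near copies of one another, and this bears on how far their values can be told apart. Their coding sequences of 426 nucleotides are identical at 92.7% of positions between CST1 and CST4, at 91.3% between CST1 and CST2 and at 92.5% between CST2 and CST4, without gaps. CST3 is more distant, with 72.3% to 75.1% identity to these 3 genes. Over whole transcripts, 27.3% of the 50-base windows of CST1, 30.2% of those of CST4 and 8.3% of those of CST2 also occur in the transcript of another gene, nearly always a member of this trio. With windows of 100 bases the shares were 8.0% for CST1, 8.1% for CST4 and 0% for CST2. The other 4 cystatins shared no window of either length. The sources used here state neither the read length nor the treatment of reads with several matches, so values of CST1, CST4 and CST2 are uncertain as single genes and are also given as a sum.

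CST4, the gene of cystatin S, had the largest difference of the 7 on the scale of log2(FPKM + 1), though with a pseudocount of 0.1 the scarce CST2 came above it (3.35, against 3.10 for CST4). It stood at 46.69 and 20.98 FPKM in KO, against 3.81 and 3.31 FPKM in WT. Both KO libraries lay above both WT libraries, and the first KO library held more than the second. The means were 33.8 ± 18.2 FPKM in KO and 3.56 ± 0.354 FPKM in WT (SD, n = 2 each), a ratio of 9.50 and a log2 difference of 2.83. Among 11786 tested genes this was the difference ranked 5 from the top.

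CST1, the gene of cystatin SN and the most abundant of the salivary trio, stood at 117.4 and 42.02 FPKM in KO, against 13.04 and 14.88 FPKM in WT. The groups did not overlap, and again the first KO library was the higher. The means were 79.7 ± 53.3 FPKM in KO and 14.0 ± 1.30 FPKM in WT (SD, n = 2 each), a ratio of 5.71 and a log2 difference of 2.26, ranked 19 among the tested genes. The deposited row for CST1 joins its RefSeq transcript with 1 assembled transcript that has no RefSeq name, so its value is not that of the RefSeq transcript alone.

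CST2, the gene of cystatin SA, was scarce in all libraries, at 4.03 and 0.91 FPKM in KO, against a listing at 0 and 0.3 FPKM in WT. The KO values lay above the WT values, but only 1 library reached 1 FPKM, so CST2 was not among the tested genes. The log2 difference was 1.44 with a pseudocount of 1 and 3.35 with a pseudocount of 0.1, so its size is set largely by that choice.

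**Figure D1:**
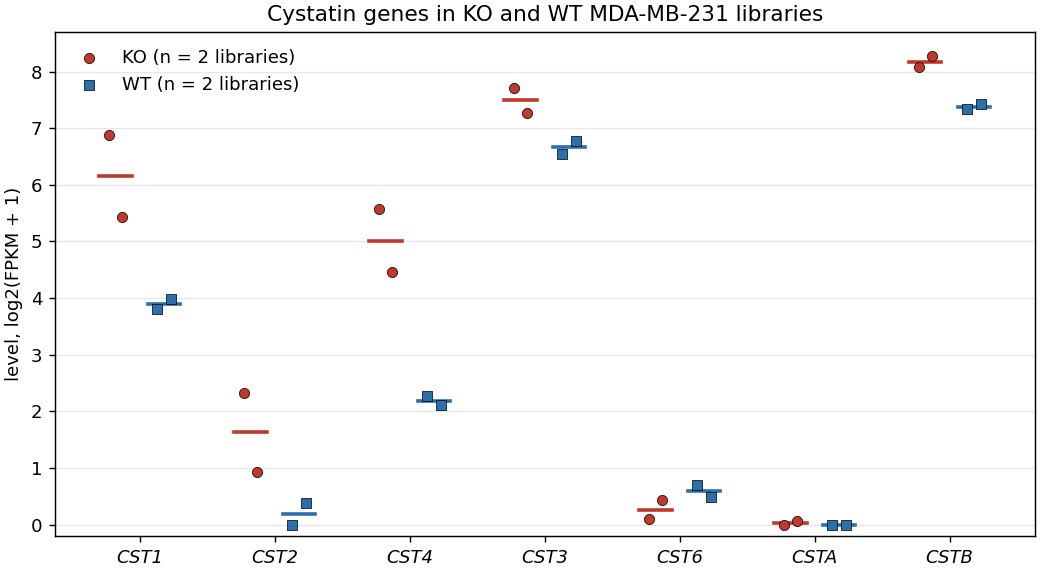
Level of each cystatin gene as log2(FPKM + 1), with circles for the 2 KO libraries, squares for the 2 WT libraries and a bar at the group mean. CST1, CST2, CST4, CST3 and CSTB had both KO libraries above both WT libraries, and CST6 and CSTA were near 0 in all libraries.

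Summed, CST1, CST2 and CST4 reached 168 and 63.9 FPKM in KO, against 16.9 and 18.5 FPKM in WT. The ratio of the group means was 6.57, so a difference in the same direction was present irrespective of how reads were divided among the 3 genes, whose transcripts are 748 to 760 nucleotides long. The make-up of the sum also differed. CST4 made up 27.8% and 32.8% of it in KO, against 22.6% and 17.9% in WT. CST1 made up 69.8% and 65.7% in KO, against 77.4% and 80.5% in WT, and remained the larger of the pair in every library. With 2 libraries a side, an exact two-sided permutation test of a single value cannot go below p = 0.333, and none was run on these shares.

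The KO libraries differed from each other in CST1 and CST4 by more than most genes did. The first exceeded the second by 1.46 on the log2 scale for CST1, and 6 of the 11786 tested genes, CST1 included, showed a gap of that size or larger in the same direction. For CST4 the gap was 1.12, reached by 25 genes, while the median gap between the KO libraries was 0.154 in size. Between the WT libraries the gaps of CST1 and CST4 were 0.178 and 0.158 in size, against a median of 0.147. With the first KO library left out, the log2 difference was 1.53 for CST1 and 2.27 for CST4, and without the second it was 2.99 and 3.39. Both genes were higher in KO than in WT with either library, but the size of the difference depended on which was kept.

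CST3 encodes cystatin C, the most widely expressed of the secreted inhibitors and a strong inhibitor of cathepsins B, L and S. It stood at 209.44 and 152.8 FPKM in KO, against 92.4 and 108.99 FPKM in WT. The groups did not overlap, and the difference was smaller in proportion than that of its cluster neighbours. The means were 181 ± 40.1 FPKM in KO and 101 ± 11.7 FPKM in WT (SD, n = 2 each), a ratio of 1.80 and a log2 difference of 0.83. Leaving out each library in turn gave log2 differences from 0.60 to 1.05. CST3 overlaps the annotated lincRNA gene AL121894.2 on the same strand over 491 nucleotides, and how reads there were assigned is unknown.

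CST6, the gene of cystatin E/M, which inhibits legumain as well as cathepsins L and V, was at 0.07 and 0.35 FPKM in KO, against 0.62 and 0.41 FPKM in WT. It was the single member with both KO values below both WT values. All 4 values lay under 1 FPKM, so the log2 difference of -0.33 (-1.13 with a pseudocount of 0.1) describes a gene close to the lower end of the table.

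Of the intracellular stefins, CSTB was the most abundant cystatin of all and CSTA was nearly absent. CSTB, which encodes stefin B, stood at 268.47 and 309.96 FPKM in KO, against 160.39 and 170.38 FPKM in WT. The groups did not overlap, and unlike CST1, CST4 and CST3 the second KO library was the higher. The means were 289 ± 29.3 FPKM in KO and 165 ± 7.06 FPKM in WT (SD, n = 2 each), a ratio of 1.75 and a log2 difference of 0.80. CSTA, which encodes stefin A, a component of the cornified envelope of skin, was listed at 0 and 0.05 FPKM in KO and at 0 in both WT libraries, and no fold is given for it.

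In WT the order of levels was CSTB, CST3, CST1, CST4, CST6, CST2 and CSTA, and neighbours in it did not overlap between libraries, apart from CST2 and CSTA, both listed at 0 in the first WT library. In KO the order was CSTB, CST3, CST1, CST4, CST2, CST6 and CSTA. There the ranges of CST1 (42.02 to 117.4 FPKM) and CST4 (20.98 to 46.69 FPKM) overlapped across libraries, although CST1 was above CST4 within each. CST2 and CST6 changed places between the groups.

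Of the 7 members, 4 passed the filter of at least 1 FPKM in at least 2 libraries, namely CST1, CST3, CST4 and CSTB, and each of them passed it in all 4 libraries. All 4 were called higher in KO by limma at an adjusted p under 0.05, against 27.0% of tested genes called in either direction, 16.2% called higher and 10.8% called lower. After scaling by the median of ratios all 4 were still called higher, and the calls over all genes were 1413 higher and 1828 lower, against 1906 and 1278 as deposited. Both KO values lay above both WT values in all 4 tested members, against 39.3% of tested genes, and also in CST2, which was not tested. As the members were picked with this contrast in view, nothing is read from these counts. Without the first WT library CST3 was not called, which left 3, and without the filter on low values none of the 7 was called.

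**Figure D2:**
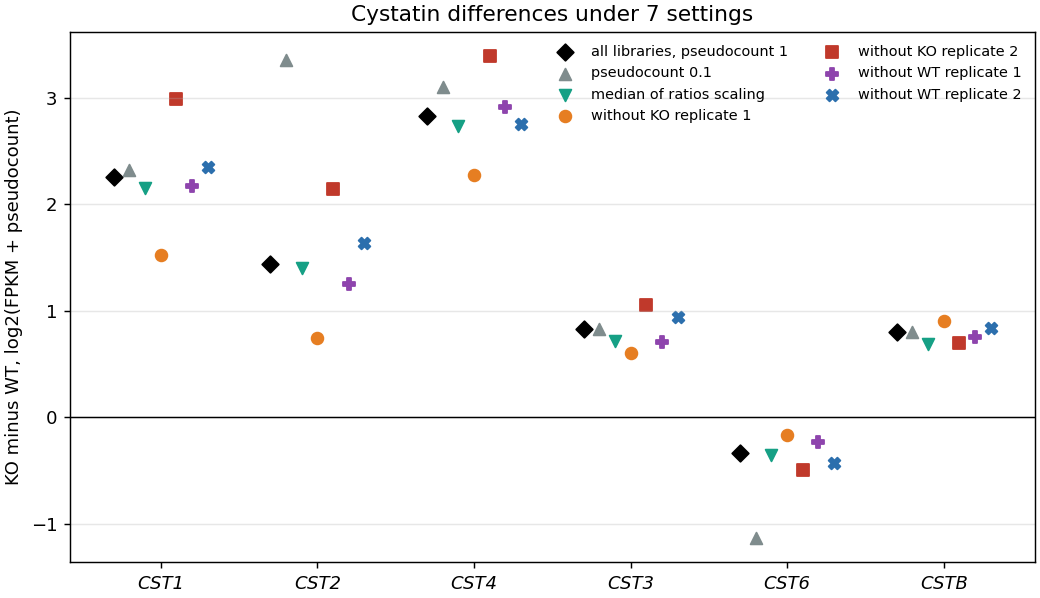
Log2 difference, KO minus WT, of 6 cystatin genes under the settings named in the legend. The difference stayed above 0 for CST1, CST2, CST3, CST4 and CSTB and below 0 for CST6 in each setting shown, CST1 and CST4 varied most with the KO library left out, and CST2 and CST6 with the pseudocount.

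The tested genes whose 4-library pattern was closest to each of the 2 tested members with a log2 difference of at least 1 were found by Euclidean distance on log2(FPKM + 1), after the WT mean of each gene was subtracted. Closest to CST1 were ITGA10, an integrin α subunit, at a distance of 0.47, NTN4, a secreted netrin, at 0.56, and CTSD, the aspartic lysosomal protease cathepsin D, at 0.65. ITGA10 stood at 6.4 and 2.46 FPKM in KO, against 0.27 and 0.28 FPKM in WT. It passed the filter on low values through the KO libraries alone, so its place here follows in part from that filter. Closest to CST4 were the growth factor gene BMP4 at 0.47, the acute-phase gene SAA1 at 0.72 and the cytokine gene CSF1 at 0.73. CST1 and CST4 were 0.88 apart, and CST3 and CSTB were 0.48 apart. BMP4 resembled CST4 in the KO libraries as well as in the difference, with 62.39 and 24.42 FPKM in KO, against 3.54 and 5.18 FPKM in WT. These distances rest on 4 libraries and describe likeness only.

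The cluster on chromosome 20 holds CST3 (chr20:23626706-23638473), CST4 (chr20:23685640-23689040), CST1 (chr20:23747553-23751268) and CST2 (chr20:23823769-23826731), all on the minus strand. The differences did not follow the order along the chromosome: they were 0.83, 2.83, 2.26 and 1.44 on the log2 scale from CST3 to CST2. Within 1 Mb of the cluster, 6 other genes of the table were annotated, and 4 of them were tested. None was called by limma, against 27.0% of all tested genes, although 1 (NXT1) had an unadjusted p under 0.05. These 4 were picked for naming after their values were seen. NXT1, a nuclear export cofactor gene, averaged 26.5 ± 1.98 FPKM in KO and 33.2 ± 1.73 FPKM in WT (log2 difference -0.32, adjusted p 0.101). THBD, GZF1 and NAPB had log2 differences of -0.20, -0.05 and 0.12, with adjusted p from 0.334 to 0.841. NXT1 and THBD had both KO values below both WT values, and GZF1 and NAPB overlapped. All 4 cystatin genes of the cluster had both KO values above both WT values, as had 39.3% of all tested genes. The members lie outside this comparison as a test, since they were chosen for their difference.

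**Figure D3:**
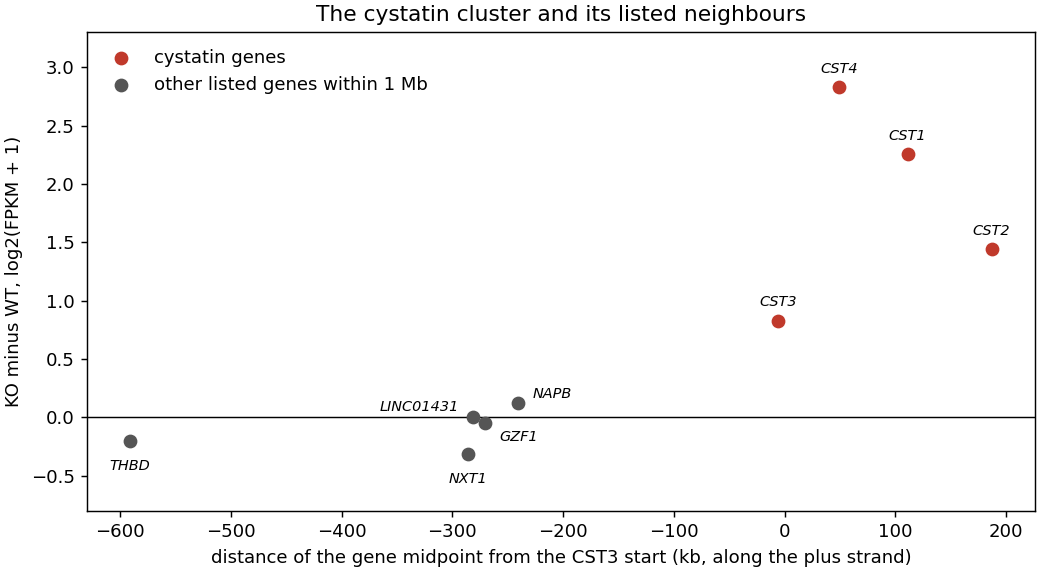
Log2 difference, KO minus WT, against the distance of each gene's midpoint from the CST3 start in kilobases, for the chromosome 20 cystatins and the other listed genes within 1 Mb that had a value above 0. The 4 cystatins lie between 0.83 and 2.83 and the tested neighbours between -0.32 and 0.12.

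Of the members, CST3 had an entry in the promoter table. The 250 bases before its RefSeq start, chr20:23637956-23638205 on the minus strand (GRCh38.p14), are shown because CST3 is the abundant member of the cluster. Capitals mark the match to GGGCGG, the GC box that SP1 binds.
CST3 promoter: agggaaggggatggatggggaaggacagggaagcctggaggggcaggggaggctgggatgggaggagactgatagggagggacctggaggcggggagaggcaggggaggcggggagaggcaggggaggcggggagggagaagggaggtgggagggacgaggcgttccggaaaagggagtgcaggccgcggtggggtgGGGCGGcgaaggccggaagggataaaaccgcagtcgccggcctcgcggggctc
Motifs were sought on both strands in this stretch together with the 50 bases after the start. GGGCGG matched once, as it does at least once in 45.0% of 35116 promoters of the same length. The E-box CACGTG, which 7.26% of promoters hold, had no match. Neither had the AP-1 element TGACTCA, which occurs in 4.95% of them. The letters TATAAA of the core promoter element, in 11.5% of promoters, were absent as well. No 2 of these motifs overlap here, and the matches say nothing of binding. The window was 69.7% G and C, above 78.9% of promoters, whose median was 58.7%.

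The proteases that cystatins inhibit changed in both directions. Of 12 genes taken as targets, the cysteine cathepsins and legumain, 8 were tested, and limma called 3 higher and 1 lower in KO (4 of 8, against 27.0% of all tested genes), with a median log2 difference of 0.05, against 0.07 over all tested genes. CTSB, the gene of cathepsin B, rose to 71.21 and 65.39 FPKM in KO, against 36.82 and 45.85 FPKM in WT (log2 difference 0.72 ± 0.14 SE, adjusted p 0.0107). CTSC, the gene of cathepsin C, which activates granule serine proteases, fell to 43.84 and 49.61 FPKM in KO, against 86.93 and 74.66 FPKM in WT (-0.78 ± 0.13 SE, adjusted p 0.0066). Both genes had groups that did not overlap, and so had CTSZ and LGMN, which were lower in KO but not called. Over all tested genes 39.3% had both KO values above both WT values. The call of CTSB did not hold without the first WT library (log2 difference 0.56).

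CTSW and CTSF, genes of a lymphocyte cathepsin and of cathepsin F, were the other 2 called. CTSW was at 1.5 and 1.52 FPKM in KO, against 0.03 and 0.09 FPKM in WT, and CTSF at 1.32 and 1.02 FPKM in KO, against 0.36 and 0.59 FPKM in WT. Both passed the filter on low values through the KO libraries alone, so their calls follow in part from that filter. The log2 differences were 1.24 for CTSW (adjusted p 0.0018) and 0.56 for CTSF (adjusted p 0.0335). CTSF was not called when any 1 of the 4 libraries was left out (adjusted p 0.0503 to 0.138). CTSW ends 1 nucleotide inside FIBP on the opposite strand, and no source used here states whether counting used strand.

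The tested target proteases that were not called included the most abundant. CTSZ, the gene of cathepsin Z, averaged 116 ± 1.42 FPKM in KO and 127 ± 11.95 FPKM in WT (log2 difference -0.12, adjusted p 0.451). CTSL, the gene of cathepsin L, averaged 82.9 ± 30.1 FPKM in KO and 75.5 ± 10.4 FPKM in WT (0.09, adjusted p 0.792). LGMN, the gene of legumain, averaged 22.3 ± 0.919 FPKM in KO and 25.7 ± 0.389 FPKM in WT (-0.20, adjusted p 0.259), and CTSV averaged 2.40 ± 0.0990 FPKM in KO and 2.38 ± 0.240 FPKM in WT (0.01, adjusted p 0.967). CTSK, CTSH, CTSO and CTSS stayed below 1 FPKM in all libraries and were not tested.

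**Figure D4:**
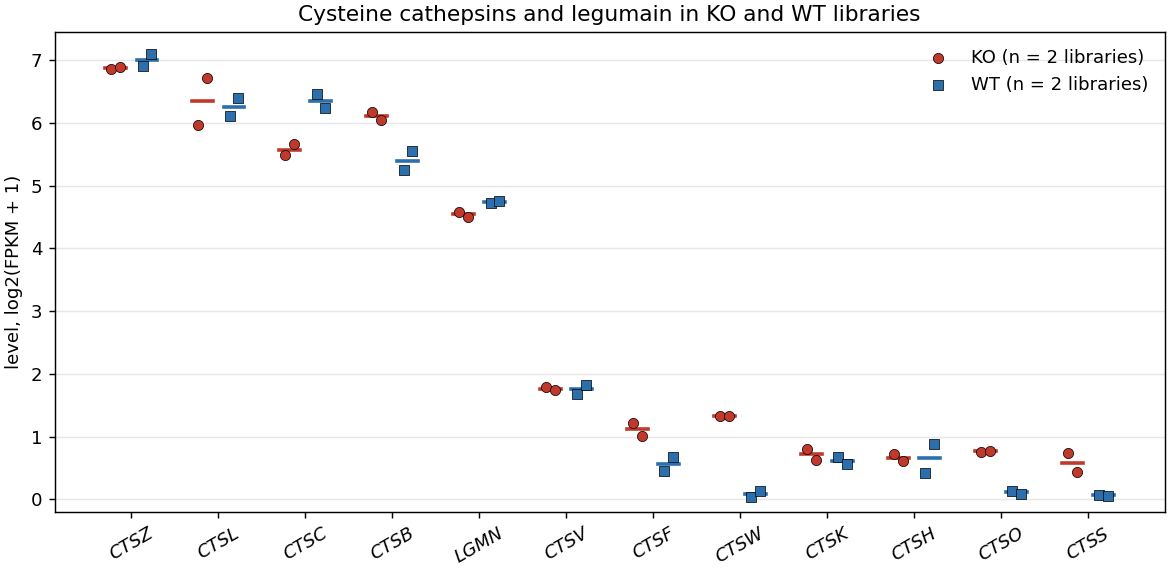
Level of each cysteine cathepsin and of legumain as log2(FPKM + 1), with circles for the 2 KO libraries, squares for the 2 WT libraries and a bar at the group mean. Of the tested genes, CTSB, CTSF and CTSW lay higher and CTSC, CTSZ and LGMN lower in both KO libraries. The groups of CTSL and CTSV overlapped.

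Inhibitor and target RNA stood in different proportions in the 2 groups. The 7 cystatins summed to 646 and 527 FPKM in KO, against 270 and 298 FPKM in WT. The 12 target proteases summed to 323 and 365 FPKM in KO, against 340 and 369 FPKM in WT. Cystatin RNA was 2.001 and 1.44 times the target protease RNA in KO, against 0.796 and 0.807 times in WT. The secreted members alone summed to 378 and 217 FPKM in KO, against 110 and 128 FPKM in WT. CSTB made up 41.6% and 58.8% of cystatin RNA in KO, against 59.3% and 57.1% in WT, and CST1 made up 18.2% and 7.97% in KO, against 4.82% and 4.99% in WT. The numerator of this proportion holds members chosen for their difference, so it is a description and carries no test.

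**Figure D5:**
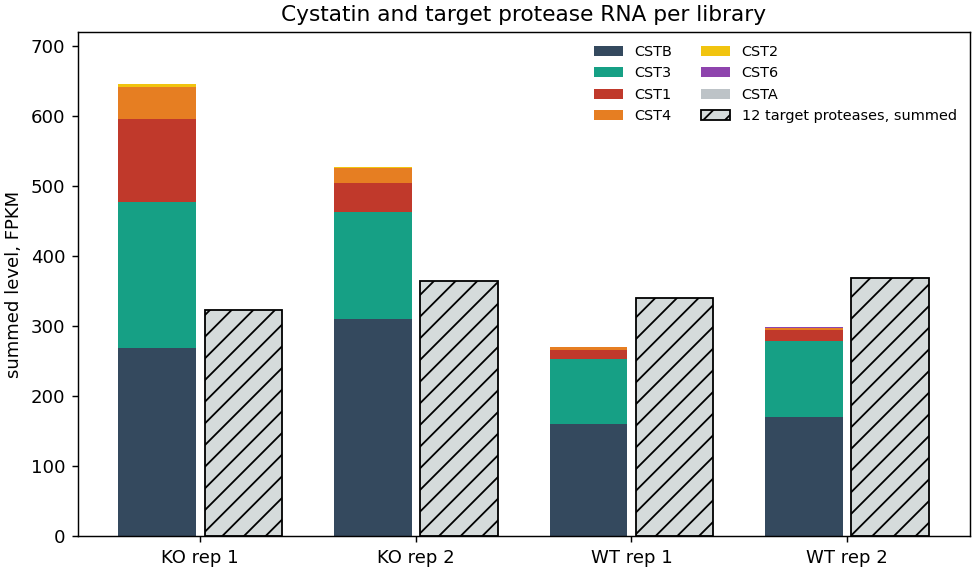
Summed FPKM per library, with the 7 cystatins stacked in the left bar and the 12 target proteases in the hatched right bar. Cystatins exceeded target proteases in both KO libraries (646 and 527 FPKM, against 323 and 365 FPKM of target proteases) and fell short of them in both WT libraries (270 and 298 FPKM, against 340 and 369 FPKM).

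Lysosomal peptidases that cystatins do not inhibit were set beside the targets. Of 6 tested, 5 were called higher in KO by limma and none lower (83.3%, against 27.0% of all tested genes), with a median log2 difference of 1.00, against 0.07 over all tested genes. CTSD was at 1425.45 and 880.62 FPKM in KO, against 172.33 and 236.35 FPKM in WT, TPP1 (tripeptidyl peptidase) rose by 1.54, DPP7 by 1.31 and CTSA (protective protein) by 0.70 on the log2 scale. The fifth called gene, SCPEP1, rose by 0.46 (adjusted p 0.0487). Limma did not call SCPEP1 with a pseudocount of 0.1 (adjusted p 0.0502) or after scaling by the median of ratios (0.109). Nor did it with the replicate number as a block (0.0754), and each of these settings called 4 of the 6. SCPEP1 also lost its call in limma without the filter on low values (adjusted p 0.113). The same held whenever a library was left out (log2 difference 0.33 to 0.59). PRCP, at 33.4 ± 0.983 FPKM in KO and 32.8 ± 1.99 FPKM in WT, was not called (0.03, adjusted p 0.894). The call of CTSA did not hold without the first WT library (adjusted p 0.0901) or the first KO library (0.0578), and CTSD, TPP1 and CTSA overlap other annotated genes. In the calpain system, the cytosolic cysteine proteases with their own inhibitor, 8 genes were tested, and limma called 1 higher and 1 lower in KO (25.0%, against 27.0% of all tested genes). The calpastatin gene CAST, which overlaps ERAP1 on the other strand, rose by 0.66 (adjusted p 0.0076), CAPN15 fell by 0.64 (adjusted p 0.0205), and CAPNS1, at 261 ± 23.6 FPKM in KO and 275 ± 15.4 FPKM in WT, was not called. The call of CAPN15 did not hold without either WT library or the second KO library (adjusted p 0.0609 to 0.0983).

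Protease inhibitors of other families changed in both directions. Of 13 tested serpins, TIMPs, Kunitz-type and related inhibitors, limma called 4 higher and 1 lower in KO, which was 38.5%, against 27.0% of all tested genes. Their median log2 difference was 0.45, against 0.07 over all tested genes. TFPI, the tissue factor pathway inhibitor, rose by 1.08, SPINT2, an inhibitor of hepatocyte growth factor activator, by 1.03, SERPINB1 by 0.55 and SERPINI1 by 0.50. TFPI2 fell by 0.57. TIMP1, the most abundant of those not called, stood at 219 ± 44.7 FPKM in KO and 158 ± 30.01 FPKM in WT (0.46, adjusted p 0.0874). After scaling by the median of ratios SERPINB1 and SERPINI1 were not called, nor was SERPINI1 with the replicate number as a block (adjusted p 0.0583). SERPINB1, SERPINI1 and TFPI2 each lost the call in at least 3 of the 4 fits that left out a library (adjusted p 0.0857 to 0.177). Of the other genes of the cystatin superfamily, AHSG was at most 0.07 FPKM and HRG was listed at 0 in all libraries, so neither was tested.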

How the data were processed

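RNA of 2 KO and 2 WT MDA-MB-231 libraries was prepared with Trizol and an Illumina TruSeq kit, per the labels' protocols. The authors deposited FPKM values, per the file headers, and these were used as they stand. HISAT, StringTie, Cufflinks and GATK appear in the submitters' processing notes with build hg38, without roles or versions. Depth and filters are unknown. Of 20804 genes, 18890 were placed on GRCh38 with GENCODE 29, and 11 symbols that had become dates were restored from gene identifiers.

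The 11786 genes that reached 1 FPKM in 2 or more libraries were fitted with limma 3.58.1 (R 4.3.3) on log2(FPKM + 1). Its moderated test used a trend in variance, p was adjusted by Benjamini-Hochberg over that whole set, and calls were made under 0.05. The fit was tested on simulated data. p-values measure only the spread between these libraries, which may be technical. Python 3.11.15 and pandas 2.3.3 served for the rest. The members and gene lists were chosen with earlier results of these data known. Of each list, up to 4 called genes per direction with the largest differences were named, and the uncalled gene with the highest mean. SCPEP1 was named besides, as its call did not hold in other settings. The 9 alternatives are a pseudocount of 0.1, no filter, a filter at 5 FPKM, scaling by the median of ratios, each library left out, and the replicate number as a block. Some items are not reported here.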

Additional observations from a re-analysis of the deposited data

How the results depend on the processing

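Apart from CSTA, whose difference was not followed over the settings, every cystatin difference kept its direction under each setting run for it. Leaving out each library in turn gave log2 differences of 1.53 to 2.99 for CST1, 0.74 to 2.14 for CST2, 0.60 to 1.05 for CST3, 2.27 to 3.39 for CST4, -0.50 to -0.16 for CST6 and 0.70 to 0.90 for CSTB. For the logarithm of the ratio of group means it gave 1.85 to 3.25 for the sum of CST1, CST2 and CST4 and 0.87 to 1.67 for that sum with CST3. With a pseudocount of 0.1 the difference was 3.35 for CST2 and -1.13 for CST6. Scaling by the median of ratios moved the median difference of all tested genes to -0.02, from 0.07 as deposited, and the calls to 1413 higher and 1828 lower, against 1906 and 1278. It gave 2.15, 0.72, 2.73 and 0.69 for CST1, CST3, CST4 and CSTB, and 3 calls among the other inhibitors, against 5 as deposited.

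Without the filter on low values limma called 525 of 19833 genes and 2 of 12 target proteases, CTSW and CTSO. CTSO was at 0.69 and 0.71 FPKM in KO, against 0.1 and 0.06 FPKM in WT, and CTSB, CTSC and CTSF lost their calls. That fit also called 2 other lysosomal peptidases, 1 calpain gene, 6 chromosomal neighbours, and 0 cystatins, 0 other inhibitors and 0 cornified envelope genes. The cause was not tested. Unadjusted p in that limma fit was under 0.05 for 4 of 7 cystatins, 10 of 32 other inhibitors and 7 of 12 cornified envelope genes. The cystatins were chosen with this contrast in view, and the share over all genes is not given. Nothing is therefore read from these counts. At 5 FPKM, with 5 target proteases tested, 2 were called, against 2601 of 8457 genes over the whole set. The fits without a library tested the same 11786 genes but had no replicate in the group of that library. Their counts, given next, are not comparable with the 27.0% called when all libraries were used. Whether a list stood above the share of all genes is not read from them. Leaving out a library gave 1402 to 1902 calls over all genes, 3 to 4 cystatins, 2 to 3 target proteases, 3 to 4 other lysosomal peptidases, 1 to 2 calpain genes, 2 to 4 other inhibitors, 1 to 2 cornified envelope genes and 18 to 22 neighbours.

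The labels number the replicates but do not say that a number marks a shared culture or day. With the replicate number as a block 2864 of 11786 genes were called, with 4 of 4 tested cystatins and 4 of 8 target proteases among them. The cystatins were chosen with this contrast in view, so nothing is read from their count. SERPINI1 was among the genes that lost their call. The differences between replicates correlated at -0.18 between KO and WT across genes, so the crossed pairing was added after seeing the data. It called 4170 of 11786 genes and 8 of 13 other inhibitors. Depth is unknown, which limits what CST2, CST6 and CSTA can show.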

Other observations

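CSTA and CST6 take part in the cornified envelope of skin, CSTA as a component and CST6 as a regulator of the transglutaminases that assemble it. Of 21 genes taken for this envelope, 12 were listed and 7 tested, and limma called 2 higher and 2 lower in KO (57.1%, against 27.0% of all tested genes). TGM1, the keratinocyte transglutaminase, rose by 0.76 on the log2 scale (adjusted p 0.0135) to 1.60 ± 0.311 FPKM in KO, against 0.530 ± 0.170 FPKM in WT, and passed the filter through the KO libraries alone. S100A11 rose by 0.41 (adjusted p 0.0362), a call that was not made after scaling by the median of ratios (adjusted p 0.0768). TGM2 fell by 0.76 (adjusted p 0.0148), to 152 ± 38.2 FPKM in KO, against 255 ± 4.50 FPKM in WT, and the desmosomal gene DSP fell by 0.61 (adjusted p 0.0216). ANXA1, at 291 ± 121 FPKM in KO and 260 ± 26.8 FPKM in WT, was not called. Each of the 4 calls was lost in at least 2 of the 4 fits that left out a library, with adjusted p from 0.0531 to 0.23.

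Around the cystatin genes outside the chromosome 20 cluster, calls came in both directions. Within 1 Mb of CST6, 21 of 70 tested genes were called, 16 higher and 5 lower in KO, a share near the 27.0% called over all tested genes. The paraspeckle RNA NEAT1 rose by 2.73 (adjusted p 0.000106), MALAT1 by 1.99 and TM7SF2 by 1.71, while CST6 itself stayed under 1 FPKM. CTSW and CTSF lie in the same window. Around CSTA 6 of 16 were called, all higher, and 2 of the 6, PARP14 and PARP9, passed the filter on low values through the KO libraries alone, as CTSW and CTSF did. Called genes numbered 7 of 15 around CSTB, 3 higher and 4 lower, with WDR4 falling by 1.06. Over these windows and that of the chromosome 20 cluster together, 34 of 105 tested genes were called (32.4%), 25 higher and 9 lower as deposited and 21 higher and 14 lower after scaling by the median of ratios. SART1, RRP1B and RRP1 fell by 0.76, 0.72 and 0.65, and FAU, the most abundant gene there that was not called, had a log2 difference of 0.19 (adjusted p 0.155).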
